A study of Mus musculus with 14 samples.

Results

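Dendritic cells (DCs) of the mouse popliteal lymph node that had taken up a biotin label from T cells were compared with DCs that had not, across all genes and by the molecular role of the genes. The comparison takes the 6 biotin-positive and 6 biotin-negative libraries, 12 of the 14 libraries in the series. In the labelling method (LIPSTIC), T cells carry the bacterial enzyme sortase A on one member of a ligand and receptor pair, and the partner carries a pentaglycine tag. Sortase moves a biotinylated LPETG peptide onto the tag when the 2 cells touch. Both biotin groups came from C57BL/6 mice with tagged Cd40 on both alleles (labelled G5-Cd40+/+). They received Cd40G5/G5 DCs loaded with the ovalbumin peptide OVA323-339, and then OT-II CD4+ T cells of the genotype CD40lgSrtA/Y CD4-Cre, so that CD40 ligand carried sortase in cells with CD4-Cre activity. The peptide substrate was given at 300 nmol per footpad at 46 hours after T cell transfer, and nodes were taken at 48 hours. The sorted cells were endogenous DCs with intermediate CD11c, high MHC class II, CD11b and no XCR1, and each library held 150 cells. The label sits on CD40 itself, so the amount of CD40 on a cell takes part in the sort. The remaining 2 libraries, from Cd40-/- mice whose transferred DCs and OT-II T cells were both WT, entered the statistical fit and are otherwise given only beside genes seen in one biotin group. Age was not stated, and nothing in the labels says whether the libraries came from separate mice, so the p-values rest on the variation among these samples, which may be technical.

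CD40 is a receptor of the tumor necrosis factor family on DCs and B cells. Its ligand appears on CD4+ T cells after antigen recognition, and signalling through CD40 is known to license DCs to activate T cells. DCs that reach a skin-draining node arrive from the tissue through lymph or develop within the node from blood precursors, and these origins differ in MHC class II, chemokine receptors and adhesion molecules.

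Levels are CPM, the deposited expected counts scaled to a common library total with trimmed-mean (TMM) factors. Differences are log2 fold changes of biotin-positive over biotin-negative libraries with standard errors (SE). P-values are two-sided, from edgeR's quasi-likelihood test, adjusted over 14217 tested genes by the Benjamini-Hochberg method, and a gene at an adjusted p below 0.05 is termed called. Ranges run from the lowest to the highest of the 6 libraries of a group, biotin-positive first, and values with ± are means with SD (n = 6). A pair of values without either gives the group means. Total counts ran from 1.45e+07 to 3.33e+07 per library, and r of log2 CPM between libraries of a group was 0.883 to 0.913. Biotin-positive libraries had counts for 13295.8 ± 155.3 genes and biotin-negative libraries for 14975.7 ± 620.5 (SD, n = 6 each), and the groups did not overlap (two-sided exact permutation p = 0.00216, the minimum over 924 arrangements). Cd40 itself lay at 852 to 1309 CPM, median 1057, in biotin-positive and 386 to 598 CPM, median 524, in biotin-negative libraries, with no overlap. It was 2.08-fold higher (log2 1.06, SE 0.13, adjusted p = 5.60e-05).

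The sorted phenotype was checked against its markers. The DC genes Flt3 (1015 against 849 CPM, adjusted p = 0.0783) and Zbtb46 (189 against 161 CPM, adjusted p = 0.448) were present in both groups and were not called, and Xcr1, a marker of type 1 DCs, stayed at 2.00 against 3.09 CPM. Itgam, which encodes the CD11b used in the gate, was present in biotin-negative libraries at 10.1 to 65 CPM, median 17.9, but near 0 in biotin-positive ones, at 0.0516 to 5.88 CPM, median 0.942 (log2 -3.76, SE 0.89, adjusted p = 0.0145). Itgax, which encodes CD11c, was 2.50-fold lower in biotin-positive libraries (log2 -1.32, SE 0.21, adjusted p = 0.000690).

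Several marker lists of other cells differed between the groups. Of 18 tested monocyte and macrophage markers, 9 were called, all lower, with summed levels of 90.7 to 240.8 CPM in biotin-positive and 228 to 1267 CPM in biotin-negative libraries. Within that list Ccr2 stood at 0.0709 to 0.394 CPM, median 0.209, against 0.857 to 63.2 CPM, median 15.8, and Cd14 at 0 to 2.53 CPM, median 1.42, against 1.57 to 46.4 CPM, median 19.2. Of 6 Langerhans cell markers, 2 were called, both higher (Cd207 and Epcam), and the list summed to 292 to 352 CPM against 54.9 to 165 CPM without overlap. The mean log2 CPM of the Langerhans list overlapped (1.89 to 3.33 against 0.696 to 3.28). Summed plasmacytoid DC markers (98.8 to 256 against 257 to 568 CPM) and stromal and endothelial markers (8.77 to 34.9 against 36.1 to 198 CPM) were lower in every biotin-positive library than in any biotin-negative one. Called were 1 of 8 tested plasmacytoid markers (Spib) and 2 of 9 stromal ones, all lower. Spib alone stood at 23.8 to 107 against 142 to 419 CPM. The mean log2 CPM overlapped in the plasmacytoid list (1.94 to 3.39 against 1.85 to 3.17) and in the stromal list (-2.14 to 0.0432 against -0.415 to 0.973). Of 10 markers of migratory mature DCs, 5 were called, all higher, and of 12 type 2 DC markers 6 were called, all lower. The summed type 2 DC markers overlapped (1363 to 1591 against 1369 to 1753 CPM). The mean log2 CPM of that type 2 list did not overlap (1.90 to 2.57 against 3.15 to 5.24). Of 13 T cell markers edgeR called 0 (2 at an unadjusted p below 0.05, and 0 by DESeq2), and their sums overlapped (28.9 to 72.9 against 25.2 to 106.7 CPM). Neutrophil and mast cell markers summed to 14.6 to 21.04 against 24.9 to 35.1 CPM without overlap (1 of 2 tested called lower), and type 1 DC markers to 370 to 609 against 216 to 399 CPM (1 higher and 1 lower of 9). The type 1 DC sums overlapped. The mean log2 CPM of that list overlapped too and reached higher in biotin-negative libraries (2.36 to 3.12 against 2.30 to 3.51). The 9 tested B cell and 3 tested NK cell markers also gave 0 by both tools, with 0 below an unadjusted p of 0.05. In bulk samples, fewer cells of a type and less RNA per cell cannot be told apart.

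Over all tested genes, 526 were called higher (3.70%) and 576 lower (4.05%) in biotin-positive libraries, 7.75% in either direction. The 2 directions differed in size. The median log2 fold change was 0.81 among genes called higher and -1.29 among those called lower, and a change of at least 2-fold was reached by 191 genes called higher (1.34%) and 350 called lower (2.46%). Genes called lower also stood at lower levels, with a median of 53.6 CPM in the group where they were higher, against 125 CPM for genes called higher. The 6 libraries of one group lay wholly above the 6 of the other for 321 of the 526 genes called higher and 271 of the 576 called lower. Over all tested genes such separation occurred in 2.60% upward and 2.41% downward. Most genes named below were picked by small p-values in these same data. Separate groups among them follow largely from that choice and are a description, not further evidence. With the mean level of the monocyte and macrophage markers as a covariate the calls fell to 52 higher and 29 lower, with that of T cell markers to 319 and 266, and with the number of detected genes to 6 and 5. The mean log2 CPM of the monocyte and macrophage markers did not overlap between the groups, nor did the number of detected genes. Neither of these covariates can be told apart from the group.

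**Figure D1:**
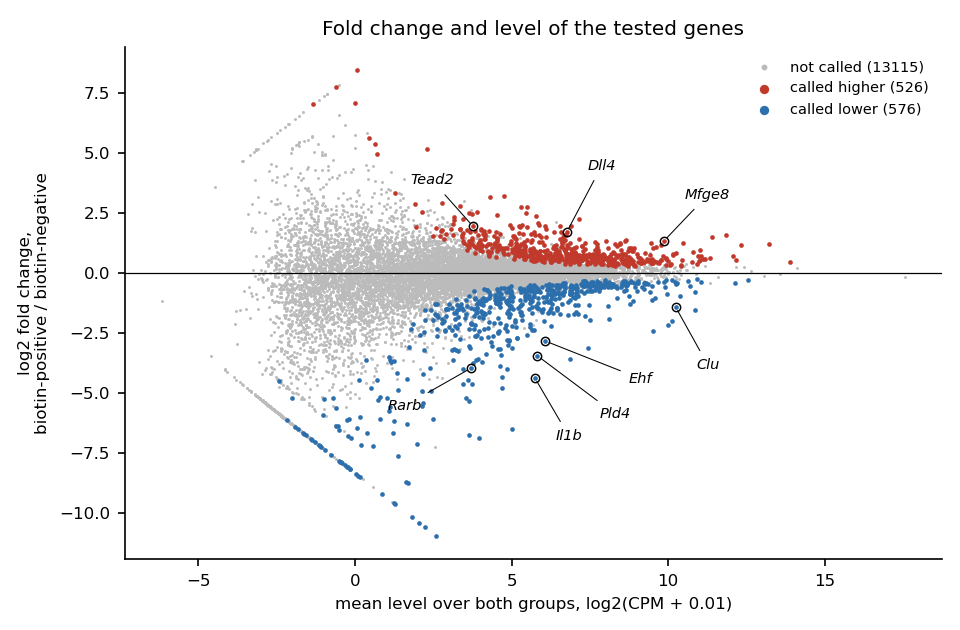
Log2 fold change of biotin-positive over biotin-negative libraries (vertical axis) against the mean level over both groups, log2(CPM + 0.01) (horizontal axis), for the 14217 tested genes, with 526 called higher in red and 576 called lower in blue. Most red points lie within about 2 log2 units of 0, and blue points reach further from 0; the straight lower-left edge holds genes without counts in biotin-positive libraries, whose fitted fold depends on the prior count.

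Genes were grouped by symbol into 4 classes with 37 families. The class names are broad. The receptor class also holds channels and transporters such as the peroxisomal Abcd2, and the secreted class holds transmembrane proteins such as Sema6d. Among 699 transcription factor genes 16 were called higher (2.29%) and 13 lower (1.86%), both below the shares over all genes. Surface receptors and channels gave 24 higher (4.03%) and 60 lower (10.1%) of 595, with a median log2 fold change of -0.33 beside -0.03 over all tested genes. Secreted factors gave 21 higher (6.21%) and 36 lower (10.7%) of 338, with a median of -0.31. Enzymes gave 77 higher (4.36%) and 73 lower (4.13%) of 1768, with a median of -0.01. The families with the largest shares called lower were lipid carriers, antimicrobial proteins and S100 proteins (10 of 33), immunoglobulin-family receptors (20 of 95) and cytokines (6 of 32). The largest shares called higher were in basic helix-loop-helix factors (5 of 45), the family of semaphorins, ephrins and Notch ligands (3 of 28) and regulators of small GTPases (17 of 178).

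**Figure D2:**
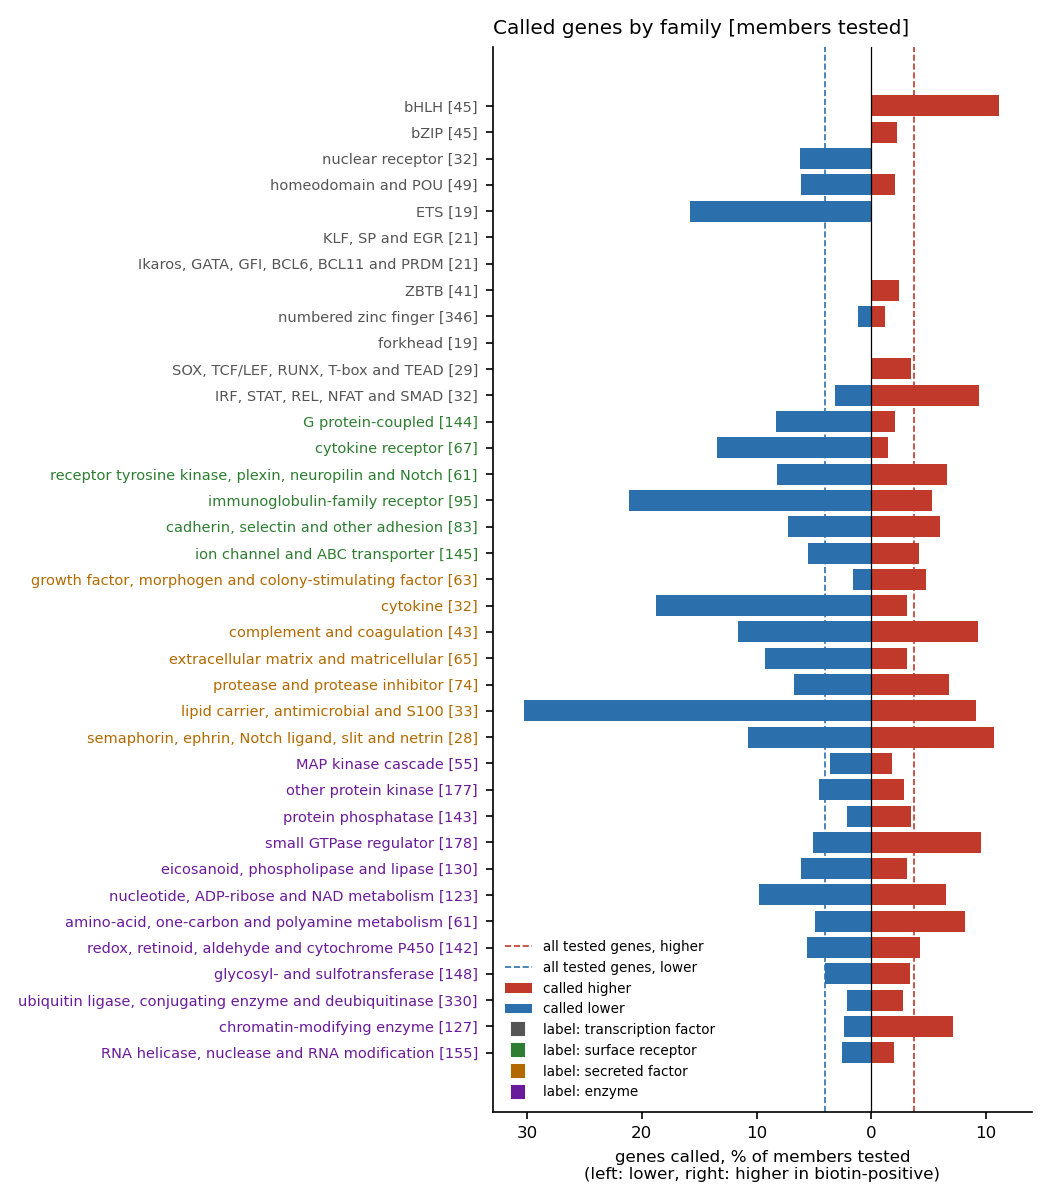
Share of tested members called higher (red, to the right) and lower (blue, to the left) in biotin-positive libraries, in percent, for 37 gene families with the number tested in brackets; dashed lines mark the shares over all tested genes (3.70% and 4.05%), and label colours mark the 4 classes. Blue bars exceed the dashed line in all 6 receptor families, and 3 transcription factor families have no bar.

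Among transcription factors, 2 close relatives moved in opposite directions. Zeb2, a zinc-finger homeodomain repressor known from monocyte and DC development (chromosome 2, 44983632 to 45117395, in the GRCm38 build), lay at 4.44 to 32.3 CPM, median 14.4, in biotin-positive and 66.7 to 127 CPM, median 81.6, in biotin-negative libraries. It was 5.30-fold lower with no overlap (log2 -2.41, SE 0.34, adjusted p = 0.000271). Its paralog Zeb1 was higher, at 86.5 to 158 CPM, median 94.7, against 63.2 to 90.8 CPM, median 68.7 (log2 0.63, SE 0.16, adjusted p = 0.0237), and there the groups overlapped. The Zeb1 call was lost without biotin-negative replicate 1 (adjusted p = 0.0526) or 3 (0.0523) or biotin-positive replicate 5 (0.0509) or 6 (0.0589), and with the T cell level as covariate (0.116), whereas Zeb2 kept its call in all 12 fits that left out 1 library.

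The interferon regulatory factors were likewise split. Irf8, which directs the development of type 1 DCs (chromosome 8, 120736358 to 120756694), was 2.29-fold higher, at 299.6 to 549 CPM, median 461, against 106 to 242 CPM, median 202 (log2 1.20, SE 0.18, adjusted p = 0.000431). Irf5, which drives inflammatory cytokine genes downstream of Toll-like receptors, stood at 396 to 542 CPM, median 508, against 217 to 357 CPM, median 279 (log2 0.79, SE 0.11, adjusted p = 0.000331). Irf1, an early interferon-induced activator, stood at 994 to 1233 CPM, median 1151, against 479 to 883 CPM, median 728 (log2 0.69, SE 0.12, adjusted p = 0.00141). In each of these 3 genes every biotin-positive library exceeded every biotin-negative one. Irf7, which amplifies type I interferon genes, was lower, at 1.08 to 13.7 CPM, median 3.37, against 7.10 to 96.8 CPM, median 42.7, with overlapping groups (log2 -3.16, SE 0.64, adjusted p = 0.00498). Without biotin-positive replicate 1 the Irf7 difference grew to log2 -3.80. These 4 were the called members of a family of 32 interferon regulatory, STAT, REL, NFAT and SMAD factors.

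Of 19 tested ETS factors, 3 were called, all lower. Ehf, an ETS factor known mainly from epithelia (chromosome 2, 103263433 to 103303278), was 7.18-fold lower, at 5.16 to 27.2 CPM, median 16.2, in biotin-positive against 82.3 to 152 CPM, median 119.6, in biotin-negative libraries, without overlap (log2 -2.84, SE 0.32, adjusted p = 3.23e-05). Spib, an ETS factor of B cells and plasmacytoid DCs and a member of the plasmacytoid list above, stood at 23.8 to 107 CPM, median 82.1, against 142 to 419 CPM, median 303 (log2 -1.96, SE 0.31, adjusted p = 0.000618). The third was Ets2 (15.7 against 33.6 CPM, log2 -1.09), whose call was lost in 4 of the 12 fits that left out 1 library (adjusted p up to 0.0601, without biotin-negative replicate 6).

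The 5 called basic helix-loop-helix factors were all higher. Ahrr, the repressor of the aryl hydrocarbon receptor (chromosome 13, 74211118 to 74292331), had the largest change among them, with 77.2 to 175 CPM, median 116, against 16.8 to 72 CPM, median 32.6, and no overlap (log2 1.69, SE 0.32, adjusted p = 0.00331). Tfe3, an activator of lysosomal genes, was 1.64-fold higher (log2 0.72, SE 0.15, adjusted p = 0.00624). Both sterol regulatory factors were called, Srebf2 at log2 0.49 (adjusted p = 0.0154) and Srebf1, named after its value was seen, at log2 0.56 (adjusted p = 0.0188). The MYC antagonist Mxd1, also named after its value was seen, stood at 1188 against 858 CPM (log2 0.47, adjusted p = 0.0275).

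Other called factors came from several families. Tead2, a DNA-binding partner of YAP and TAZ (chromosome 7, 45215753 to 45233644), lay at 18.2 to 24.2 CPM, median 21.5, against 3.12 to 8.48 CPM, median 5.63, the only called gene of 29 SOX, TCF, RUNX, T-box and TEAD factors (log2 1.94, SE 0.25, adjusted p = 0.000132). Zbtb4, which binds methylated DNA, lay at 37.8 to 60.5 CPM, median 50.9, against 10.7 to 21.6 CPM, median 18.1 (log2 1.52, SE 0.20, adjusted p = 0.000130). Rarb, a retinoic acid receptor (chromosome 14, 16430839 to 16819156), was close to 0 in biotin-positive libraries, at 0 to 3.83 CPM, median 1.54, against 20.4 to 29.3 CPM, median 24.4 (log2 -3.98, SE 0.75, adjusted p = 0.00304). Lmo4, a LIM-domain cofactor, stood at 1.70 to 9.61 CPM, median 6.66, against 18.1 to 37.9 CPM, median 33.9 (log2 -2.31, SE 0.34, adjusted p = 0.000357), and the zinc-finger gene Zfp488 at 131 to 178 CPM, median 146, against 272 to 522 CPM, median 405 (log2 -1.37, SE 0.16, adjusted p = 4.22e-05). None of these 5 genes had overlapping groups. In 3 families edgeR called 0 members. Of 21 KLF, SP and EGR factors 0 were below an unadjusted p of 0.05 and DESeq2 called 0, and of 19 forkhead factors 4 were below it and DESeq2 called 0. Of 21 Ikaros, GATA, GFI, BCL and PRDM factors 6 were below it, DESeq2 called 1 and limma 2, by voom and on the deposited signal alike. The median log2 fold change was -0.37 in the KLF, SP and EGR family, where 19 of 21 were negative. It was -0.33 in the Ikaros to PRDM family (13 of 21 negative) and 0.002 in the forkhead family, beside -0.03 over all tested genes. These shifts were not tested. With the monocyte and macrophage level as covariate, Zbtb4 and Zeb2 kept a call among the factors classed here by symbol, which is not a complete list of transcription factors. With the number of detected genes as covariate, 0 of the classed factors were called.

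In the 6 receptor families the calls were 24 higher and 60 lower in all, with a margin of 1 or 2 genes in 3 of them (receptor tyrosine kinases, adhesion genes and channels), and the difference between directions was not tested. The G protein-coupled receptors (12 lower, 3 higher of 144) included Gpr35, a receptor of tryptophan metabolites, at 3.34 to 16.4 CPM, median 7.75, against 23.8 to 62.4 CPM, median 47.7 (log2 -2.30, SE 0.35, adjusted p = 0.000426). The adrenergic receptor Adra1a went the other way, at 25.8 to 95.2 CPM, median 54.2, against 10.4 to 41.5 CPM, median 14.6 (log2 1.64, SE 0.34, adjusted p = 0.00618), and there 1 biotin-negative library overlapped the biotin-positive range. Its call was lost with the T cell level as covariate (adjusted p = 0.0638).

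Cytokine receptors gave 9 lower and 1 higher of 67. Ifngr1, the ligand-binding chain of the interferon-gamma receptor, lay at 21.9 to 43.7 CPM, median 29.6, against 57.5 to 89.9 CPM, median 80.9 (log2 -1.38, SE 0.18, adjusted p = 0.000140). Il6ra, the interleukin-6 receptor, lay at 5.26 to 35.4 CPM, median 16.6, against 55.7 to 93.5 CPM, median 84 (log2 -2.15, SE 0.33, adjusted p = 0.000510). Il7r, the interleukin-7 receptor chain, named after its value was seen, averaged 282 ± 49.6 against 485 ± 79.8 CPM (log2 -0.78, SE 0.14, adjusted p = 0.00194). All 3 had separate groups. The member called higher was Csf2ra, the alpha chain of the GM-CSF receptor, at 144 to 194 CPM, median 157, against 104 to 142 CPM, median 114 (log2 0.46, SE 0.11, adjusted p = 0.0174), also with separate groups, and its call was lost with the T cell level as covariate (adjusted p = 0.0889).

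Of 95 immunoglobulin-family receptors, 20 were called lower and 5 higher. The inhibitory receptor Lilrb4 lay at 3.47 to 12.2 CPM, median 9.97, against 24.9 to 80.9 CPM, median 47 (log2 -2.45, SE 0.32, adjusted p = 0.000124), and it belongs to a family of similar genes among which short reads can be shared. The 5 called higher were the adhesion genes Igsf3, Igsf9, F11r, Pvr and Pvrl1, the last pair named after their values were seen. Igsf3 (chromosome 3, 101377083 to 101463059) lay at 220.0 to 383 CPM, median 283, against 108 to 154 CPM, median 141 (log2 1.09, SE 0.13, adjusted p = 6.44e-05), and Igsf9 at 221 to 333 CPM, median 257, against 122 to 146 CPM, median 141 (log2 0.95, SE 0.12, adjusted p = 9.12e-05). Pvr, a ligand of the lymphocyte receptors CD226 and TIGIT, differed 1.63-fold (log2 0.70, SE 0.17, adjusted p = 0.0150), and Pvrl1, which encodes nectin-1, 2.35-fold (log2 1.23, SE 0.28, adjusted p = 0.0117).

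Of 83 cadherins, selectins and other adhesion genes, 5 were called higher (6.02%, beside 3.70% over all tested genes) and 6 lower (7.23%, beside 4.05%). F11r of the immunoglobulin family, the junctional adhesion molecule A (chromosome 1, 171437535 to 171464603), lay at 213 to 258 CPM, median 231, against 124 to 159 CPM, median 134 (log2 0.75, SE 0.09, adjusted p = 7.38e-05). The tight junction genes Cldn1 (claudin-1) and Ocln (occludin) lay at 91.6 to 235 CPM, median 139, against 28.5 to 72.5 CPM, median 56.7 (log2 1.48, SE 0.24, adjusted p = 0.000915) and at 37.9 to 66.3 CPM, median 44.5, against 9.29 to 26.7 CPM, median 17 (log2 1.48, SE 0.33, adjusted p = 0.00939). Epcam, an adhesion molecule of epithelia and Langerhans cells, averaged 149 ± 18.4 against 38.4 ± 16.4 CPM (log2 1.96, SE 0.23, adjusted p = 4.67e-05). Each of these 4 genes was higher in all 6 biotin-positive libraries than in any biotin-negative one. Epcam is also 1 of the 6 Langerhans cell markers. Of the other 5, Cd207 was called higher, at 72.6 to 126 CPM, median 110.4, against 8.43 to 46.6 CPM, median 25.5, and the part of these cells in the levels of the 4 genes was not tested. Of other claudins, Cldn10 was called lower (0.0902 against 2.10 CPM, log2 -4.47), named after its value was seen. The epithelial cadherin Cdh1 stood at 4.29 against 2.15 CPM and was not called (adjusted p = 0.758). With the T cell level as covariate the Ocln call was lost (adjusted p = 0.0542).

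Among receptors for guidance and growth signals, Plxna1, a semaphorin receptor, lay at 25.7 to 42 CPM, median 33.9, against 8.57 to 23.8 CPM, median 15.1 (log2 1.13, SE 0.24, adjusted p = 0.00754), and the related Plxnc1 was higher by log2 0.40 (adjusted p = 0.00555). Axl, a receptor tyrosine kinase for apoptotic cells bridged by Gas6 (chromosome 7, 25757273 to 25788705), was close to 0 in biotin-positive libraries, at 0 to 5.88 CPM, median 1.85, against 9.61 to 48.1 CPM, median 35.3 (log2 -3.73, SE 0.88, adjusted p = 0.0144), and its call was lost without the filter on low counts (adjusted p = 0.054) and with the T cell covariate (0.0772). Notch2, which is needed for a subset of CD11b+ DCs, stood at 55.8 to 81.3 CPM, median 63.8, against 86.7 to 133 CPM, median 116 (log2 -0.79, SE 0.15, adjusted p = 0.00259).

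Of 145 ion channels and ABC transporters, 6 were called higher (4.14%, beside 3.70% over all tested genes) and 8 lower (5.52%, beside 4.05%). Cacnb3, the beta-3 subunit of voltage-gated calcium channels and a marker of migratory mature DCs (chromosome 15, 98630840 to 98644529), lay at 2281 to 2785 CPM, median 2682, against 1415 to 1760.5 CPM, median 1561 (log2 0.71, SE 0.07, adjusted p = 1.97e-05). Hvcn1, the voltage-gated proton channel that supports the oxidative burst, lay at 333 to 452 CPM, median 399, against 178 to 242 CPM, median 222 (log2 0.88, SE 0.10, adjusted p = 4.82e-05). Abcd2, a peroxisomal importer of very long-chain fatty acids, lay at 4.07 to 19.3 CPM, median 7.55, against 44.8 to 81.6 CPM, median 63.3 (log2 -2.74, SE 0.32, adjusted p = 5.03e-05). In all 3 the groups were separate. With the monocyte and macrophage level as covariate, the receptors and channels classed by symbol that kept a call were Cacnb3, F11r, Hvcn1 and Igsf3 (higher) and Abcd2 and Il15ra (lower).

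**Figure D3:**
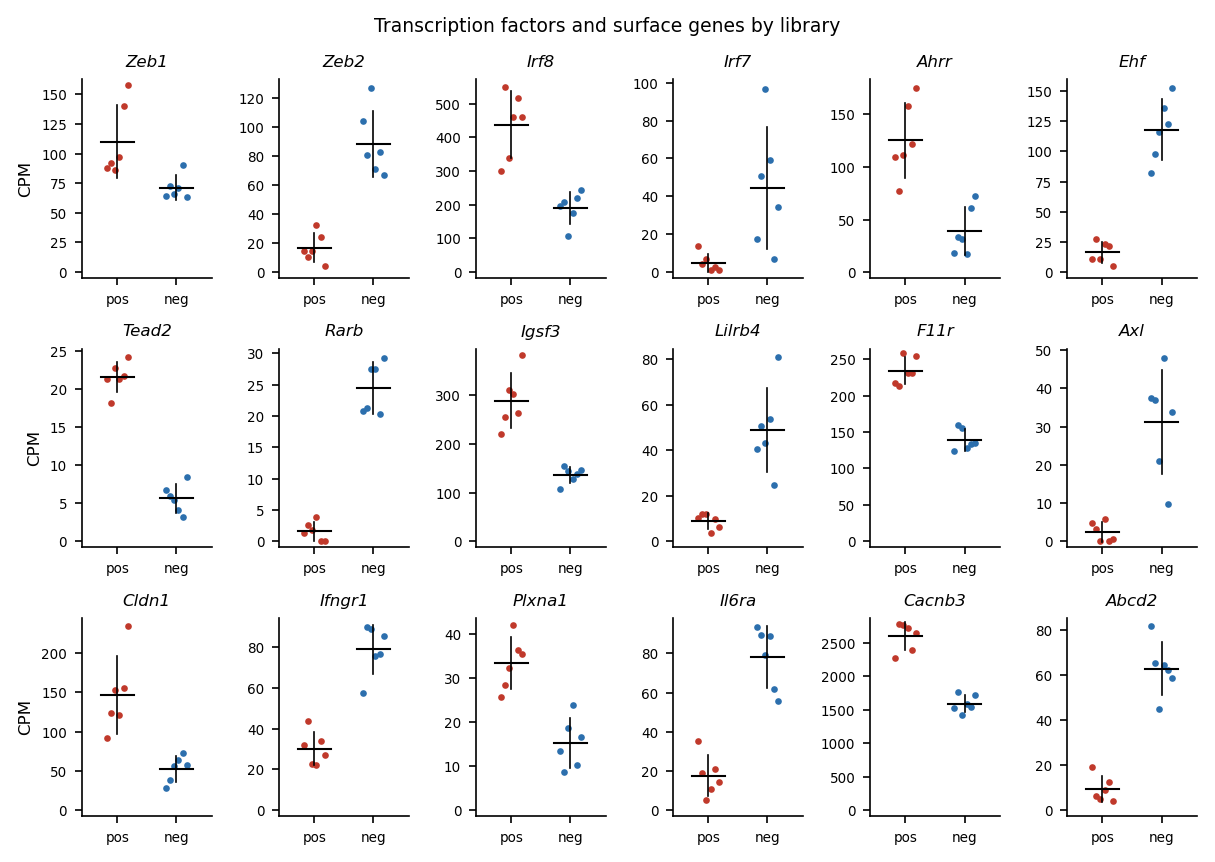
CPM (vertical axes, linear) of 18 genes of the transcription factor class and the receptor and channel class in the 6 biotin-positive (pos, red) and 6 biotin-negative (neg, blue) libraries. Replicates 1 to 6 run from left to right in each group, horizontal bars are means and vertical bars are ± SD. Zeb1 and Irf7 show overlapping groups, and the other 16 genes do not.

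Cytokines gave 6 lower and 1 higher of 32. Il1b, the inflammatory cytokine interleukin-1 beta (chromosome 2, 129364570 to 129371139), lay at 0 to 12.9 CPM, median 4.70, against 37.1 to 225 CPM, median 88.5 (log2 -4.38, SE 0.83, adjusted p = 0.00429). Il1rn, which encodes the antagonist of the same receptor, lay at 8.41 to 20.9 CPM, median 11.5, against 26.5 to 127 CPM, median 77.4 (log2 -2.58, SE 0.32, adjusted p = 7.38e-05). Agonist and antagonist were both lower, each without overlap. The gene called higher was Il18bp, a soluble inhibitor of interleukin-18 (51 against 29.9 CPM, log2 0.77, adjusted p = 0.00670).

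Extracellular matrix and matricellular genes gave 2 higher and 6 lower of 65. Mfge8, which bridges apoptotic cells to integrins (chromosome 7, 79133768 to 79149060), was 2.51-fold higher, at 1152 to 1512 CPM, median 1362, against 326 to 704 CPM, median 546 (log2 1.33, SE 0.16, adjusted p = 6.40e-05). Fbln5, an elastic fibre protein, lay at 229 to 384 CPM, median 243, against 81.3 to 160.3 CPM, median 121 (log2 1.26, SE 0.20, adjusted p = 0.000677). Fn1, which encodes fibronectin, was lower, at 0 to 8.81 CPM, median 4.08, against 21.5 to 68.3 CPM, median 31.1 (log2 -3.05, SE 0.70, adjusted p = 0.0122). None of the 3 overlapped between groups. Also lower were Lgals3bp, a secreted galectin-3 binding protein (73.8 ± 9.92 against 161 ± 32.1 CPM, log2 -1.13, SE 0.15, adjusted p = 0.000132), and the matrix glycoprotein gene Emilin2 (0.211 ± 0.488 against 8.71 ± 7.92 CPM, log2 -5.43, SE 1.21, adjusted p = 0.00929). Emilin2 stood at log2 -9.06 without biotin-positive replicate 4 and at -4.76 without biotin-negative replicate 6. The Fn1 call was lost with the T cell covariate (adjusted p = 0.0965). Fn1 is also expressed by monocytes, macrophages and stroma, markers of which were called lower (9 of 18 tested monocyte and macrophage markers, 2 of 9 stromal ones). The sort was for CD11c, MHC class II and CD11b, and the part of these other cells in the Fn1 levels was not tested.

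Complement and coagulation genes gave 4 higher and 5 lower of 43. Clu, the extracellular chaperone clusterin (chromosome 14, 65968483 to 65981547), was 2.69-fold lower, at 337 to 921 CPM, median 646, against 1226 to 2121 CPM, median 1773 (log2 -1.43, SE 0.20, adjusted p = 0.000275). Cfp, the complement activator properdin, stood at 0 to 2.41 CPM, median 0.646, against 2.39 to 49.5 CPM, median 27.3, with overlapping groups (log2 -4.63, SE 0.82, adjusted p = 0.00180). Procr, the endothelial protein C receptor, was higher, at 28.7 to 58.8 CPM, median 32.9, against 4.24 to 22.6 CPM, median 10.6 (log2 1.63, SE 0.32, adjusted p = 0.00384).

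Lipid carriers, antimicrobial proteins and S100 proteins gave 3 higher and 10 lower of 33. Psap, the precursor of the saposins, lay at 440.1 to 539.6 CPM, median 503, against 713 to 1214 CPM, median 1054 (log2 -1.05, SE 0.11, adjusted p = 2.35e-05), and Npc2, which binds cholesterol in the lysosome, at 314 to 490.4 CPM, median 478, against 713 to 1161 CPM, median 989.8 (log2 -1.12, SE 0.12, adjusted p = 3.15e-05). The fatty acid binding protein Fabp4 averaged 3.31 ± 2.39 against 53.9 ± 10.9 CPM (log2 -4.03, SE 0.41, adjusted p = 1.52e-05). Trf, which encodes the iron carrier transferrin, belonged to the same family and was higher, at 247 to 332 CPM, median 282, against 117 to 214 CPM, median 184 (log2 0.69, SE 0.12, adjusted p = 0.00162). Among extracellular proteases, the serine protease Htra1 lay at 45.5 to 79.9 CPM, median 64.4, against 145 to 249.6 CPM, median 215 (log2 -1.70, SE 0.18, adjusted p = 2.20e-05) and the metalloprotease Adam15 at 98.7 to 173 CPM, median 163, against 52.5 to 86.2 CPM, median 76.9 (log2 1.06, SE 0.16, adjusted p = 0.000356), in opposite directions and both without overlap.

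Semaphorins, ephrins, Notch ligands, slits and netrins gave 3 higher and 3 lower of 28. Dll4, a Notch ligand (chromosome 2, 119325784 to 119335962), was 3.23-fold higher, at 98.8 to 213 CPM, median 175, against 27.4 to 72 CPM, median 53.4 (log2 1.69, SE 0.33, adjusted p = 0.00353). Sema6d, a transmembrane semaphorin that binds Plxna1 (chromosome 2, 124089969 to 124667770), lay at 446 to 786 CPM, median 556, against 211 to 341 CPM, median 302 (log2 1.03, SE 0.14, adjusted p = 0.000239). Sema4d, a semaphorin that binds plexin-B1 and CD72, was lower, at 2.48 to 15.3 CPM, median 6.52, against 15.6 to 57.6 CPM, median 47.9 (log2 -2.45, SE 0.41, adjusted p = 0.00108). In none of these 3 did the groups overlap. With the monocyte and macrophage level as covariate, the secreted factors classed by symbol that kept a call were Fbln5 and Sema6d (higher) and Clu, Fabp4, Htra1 and Npc2 (lower).

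Enzymes that regulate small GTPases gave 17 higher and 9 lower of 178. Rasgrp1, an exchange factor for Ras, lay at 16.3 to 34.3 CPM, median 22, against 58.7 to 110.0 CPM, median 72.7 (log2 -1.69, SE 0.20, adjusted p = 4.81e-05). Its groups were separate. Regulators called higher by the rule for named genes included Arhgap26 (log2 0.72) and Fgd5 (log2 1.69), and Pak1, a kinase activated by Rac and Cdc42, was 1.92-fold higher (log2 0.94, SE 0.18, adjusted p = 0.00376).

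MAP kinase cascade genes gave 1 higher and 2 lower of 55 (5.45% called). Other protein kinases gave 5 higher (2.82%) and 8 lower (4.52%) of 177 (7.34% called). Both shares lay below the 7.75% over all tested genes. Yes1, a kinase of the Src family, lay at 32.6 to 66.3 CPM, median 48, against 6.60 to 29.1 CPM, median 15.1 (log2 1.53, SE 0.31, adjusted p = 0.00459). Fgr, another Src-family kinase known from myeloid cells, lay at 7.95 to 22.5 CPM, median 17.7, against 43.7 to 82.1 CPM, median 65.7 (log2 -1.96, SE 0.23, adjusted p = 5.78e-05), and Syk, which signals from immunoreceptors, at 31 to 61.3 CPM, median 47.9, against 89.5 to 161 CPM, median 127 (log2 -1.46, SE 0.17, adjusted p = 4.99e-05). Map2k1, the kinase that activates ERK, was higher, at 233 to 323 CPM, median 271, against 121 to 193 CPM, median 151 (log2 0.85, SE 0.12, adjusted p = 0.000236). All 4 had separate groups.

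Phospholipases and lipid enzymes gave 8 lower (6.15%, beside 4.05% over all tested genes) and 4 higher (3.08%, beside 3.70%) of 130. Pld4, an endolysosomal nuclease of the phospholipase D family (chromosome 12, 112760655 to 112768990), was 11-fold lower, at 2.32 to 19.7 CPM, median 9.57, against 76.6 to 127 CPM, median 101 (log2 -3.46, SE 0.39, adjusted p = 3.15e-05). Pla2g7, which inactivates platelet-activating factor, lay at 0.588 to 5.67 CPM, median 2.70, against 15.7 to 50.9 CPM, median 34.5 (log2 -3.37, SE 0.46, adjusted p = 0.000196), and Sgms1, a sphingomyelin synthase, at 9.60 to 17.1 CPM, median 13.9, against 30.1 to 45.2 CPM, median 35 (log2 -1.42, SE 0.21, adjusted p = 0.000312). The 3 genes had no overlap.

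Subunits of the phagocyte NADPH oxidase, which makes superoxide, did not change alike. Cybb, the catalytic subunit, was 4.09-fold lower, at 12.4 to 51.4 CPM, median 21, against 82.8 to 127 CPM, median 108 (log2 -2.03, SE 0.27, adjusted p = 0.000173). Its membrane partner Cyba, named after its value was seen, was lower by a smaller amount (246 ± 26.6 against 339.7 ± 55.8 CPM, log2 -0.47, SE 0.11, adjusted p = 0.0133), and its call was lost with the replicate block (adjusted p = 0.065) and with the T cell covariate (0.118). The cytosolic organizer Ncf1 was higher, at 691 to 990.0 CPM, median 827, against 494 to 693 CPM, median 539, the highest biotin-negative library just above the lowest biotin-positive one (log2 0.53, SE 0.10, adjusted p = 0.00384).

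The promoters of Cybb and Ncf1 both hold the core of the interferon-stimulated response element (ISRE), a motif bound by interferon regulatory factors. The core was searched as GAAANNGAA on both strands of 300 bases, 250 before to 50 after the start, in RefSeq promoters of the GRCm38.p6 build, which matched 10450 tested genes. It occurred in 8.78% of all tested genes, 9.14% of 394 called higher and 16.0% of 420 called lower. By class, it occurred in 12 of 63 enzymes called lower (19.0%) and 5 of 63 called higher (7.94%), in 6 of 28 secreted factors called lower (21.4%) and 1 of 17 called higher (5.88%), in 6 of 45 receptors called lower and 2 of 15 called higher (13.3% each), and in 0 of 12 transcription factors called lower and 1 of 14 called higher (7.14%). Other motifs were searched the same way, and matches of different motifs may overlap. Their shares among all tested genes, genes called higher and genes called lower were, in that order, those of NF-kB (GGGNNTTCC, 8.54%, 8.38% and 11%), AP-1 (TGANTCA, 6.51%, 7.11% and 11.2%), PU.1 (GAGGAAGT, 3.94%, 6.35% and 5.48%), the E-box (CACGTG, 11.1%, 10.7% and 9.05%), the sterol response element (CACCCCAC, 3.78%, 4.57% and 4.05%) and CRE (TGACGTCA, 3.38%, 2.54% and 0.952%). The ISRE core can overlap itself in tandem and a match is a description, not a shown binding site. The promoters shown are the 250 bases before the start, with matches to GAAANNGAA or its reverse complement in capitals. They belong to 2 genes called lower with 3 matches each (Cybb, and Isg15, which encodes a ubiquitin-like modifier) and 2 called higher with 1 match each (Ncf1 and Plxnc1). These 4 were picked as examples, and the number of matches per promoter was not compared between directions. All 4 lie on the minus strand and are written 5′ to 3′ toward the start.
Cybb, chrX:9469325-9469574: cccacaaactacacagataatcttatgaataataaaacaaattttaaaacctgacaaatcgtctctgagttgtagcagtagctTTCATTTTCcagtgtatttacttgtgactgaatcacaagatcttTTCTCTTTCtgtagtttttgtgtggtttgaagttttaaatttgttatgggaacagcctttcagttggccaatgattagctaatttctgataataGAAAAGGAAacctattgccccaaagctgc
Isg15, chr4:156200819-156201068: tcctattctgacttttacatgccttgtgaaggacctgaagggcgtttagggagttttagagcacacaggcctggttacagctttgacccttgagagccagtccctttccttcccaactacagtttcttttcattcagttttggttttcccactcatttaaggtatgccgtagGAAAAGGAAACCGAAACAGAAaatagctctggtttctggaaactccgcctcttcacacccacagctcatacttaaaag
Ncf1, chr5:134229626-134229875: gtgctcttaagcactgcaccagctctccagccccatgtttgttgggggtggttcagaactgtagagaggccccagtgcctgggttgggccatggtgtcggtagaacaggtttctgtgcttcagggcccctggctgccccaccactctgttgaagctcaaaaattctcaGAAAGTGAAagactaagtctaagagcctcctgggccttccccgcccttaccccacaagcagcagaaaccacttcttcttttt
Plxnc1, chr10:94944846-94945095: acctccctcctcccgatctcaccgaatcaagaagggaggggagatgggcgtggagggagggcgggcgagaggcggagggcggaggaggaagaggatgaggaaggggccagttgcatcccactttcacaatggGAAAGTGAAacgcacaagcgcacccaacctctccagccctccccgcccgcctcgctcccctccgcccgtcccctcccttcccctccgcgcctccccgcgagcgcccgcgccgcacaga
The matches begin 167, 123 and 29 bases before the start in Cybb, and at 78, 72 and 66 bases in Isg15, where they overlap in tandem. The single matches begin at 82 bases in Ncf1 and 118 bases in Plxnc1.

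Ube2l6 and Uba7, enzymes of ISG15 conjugation, did not follow Isg15 itself. Isg15 lay at 2.76 to 6.78 CPM, median 6.00, against 7.72 to 23.2 CPM, median 13.2 (log2 -1.50, SE 0.37, adjusted p = 0.0173). Ube2l6, the conjugating enzyme for ISG15, was higher, at 724 to 927 CPM, median 862, against 448 to 568 CPM, median 491 (log2 0.74, SE 0.09, adjusted p = 4.03e-05), and so was the activating enzyme Uba7, named after its value was seen (810.1 ± 76.7 against 586 ± 61.4 CPM, log2 0.47, SE 0.09, adjusted p = 0.00388). In all 3 genes the groups were separate. The Isg15 call was lost with the T cell covariate (adjusted p = 0.108). The ADP-ribosyltransferase Parp3, which acts in DNA break repair, lay at 117 to 160.4 CPM, median 147, against 45.9 to 86.1 CPM, median 73.4 (log2 1.00, SE 0.14, adjusted p = 0.000267), and the partner proteins Parp9 (log2 0.62, adjusted p = 0.0120) and Dtx3l (log2 0.47, adjusted p = 0.00573), picked with their values known, were higher too. The Parp9 call was lost with the T cell covariate (adjusted p = 0.0681).

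Sialyltransferases that add alpha-2,8-linked sialic acid were split. St8sia1, the synthase of ganglioside GD3, lay at 88.9 to 153 CPM, median 114, against 45.2 to 83.6 CPM, median 62.8 (log2 0.85, SE 0.18, adjusted p = 0.00566), and St8sia4, which makes polysialic acid, at 43.8 to 93.8 CPM, median 62.8, against 149 to 277 CPM, median 179 (log2 -1.63, SE 0.20, adjusted p = 6.87e-05). Neither had overlapping groups, and the St8sia1 call was lost with the T cell covariate (adjusted p = 0.0587).

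In metabolism, Mthfd2, a mitochondrial one-carbon enzyme, lay at 195 to 366 CPM, median 252, against 140.2 to 179 CPM, median 146 (log2 0.79, SE 0.15, adjusted p = 0.00243), and Sesn2, a stress-induced regulator of mTORC1, at 74.4 to 103 CPM, median 86.2, against 25.3 to 55.2 CPM, median 35 (log2 1.27, SE 0.18, adjusted p = 0.000236). Dhrs3, which reduces retinaldehyde, was lower together with the retinoic acid receptor Rarb, at 15.7 to 65.7 CPM, median 46, against 102 to 169 CPM, median 128 (log2 -1.55, SE 0.25, adjusted p = 0.000792). Ahcyl2, related to adenosylhomocysteinase, lay at 23.1 to 50.7 CPM, median 32.5, against 80.6 to 147 CPM, median 116 (log2 -1.64, SE 0.21, adjusted p = 9.58e-05). These 4 genes had separate groups.

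Chromatin-modifying enzymes gave 9 higher (7.09%) and 3 lower (2.36%) of 127, beside 3.70% and 4.05% over all tested genes. Ehmt1, a histone H3 lysine-9 methyltransferase, lay at 350.2 to 532 CPM, median 427, against 225 to 283 CPM, median 259.9, without overlap (log2 0.75, SE 0.11, adjusted p = 0.000377). Suv39h1, which methylates the same residue, averaged 112 ± 28.2 against 51.3 ± 13.6 CPM (log2 1.12, SE 0.20, adjusted p = 0.00210), and the demethylase Kdm2b 195 ± 24.3 against 116 ± 17.6 CPM (log2 0.75, SE 0.12, adjusted p = 0.000625). Also higher were Ezh1, a Polycomb methyltransferase (log2 0.64, adjusted p = 0.0125), and the remodeller Chd7 (log2 0.78, adjusted p = 0.00243), both chosen after their values were seen. Of 330 ubiquitin enzymes, 9 were called higher (2.73%) and 7 lower (2.12%), both below the shares of 3.70% and 4.05% over all tested genes. The ligase Rnf19a lay at 538 to 687 CPM, median 587, against 219 to 350.0 CPM, median 300.2 (log2 1.03, SE 0.12, adjusted p = 5.56e-05). With the monocyte and macrophage level as covariate, enzymes that kept a call included Parp3, Plekhg1, Ptpro and Ulk3 (higher) and Ahcyl2, Apobec1, Dhrs3 and Rasgrp1 (lower).

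**Figure D4:**
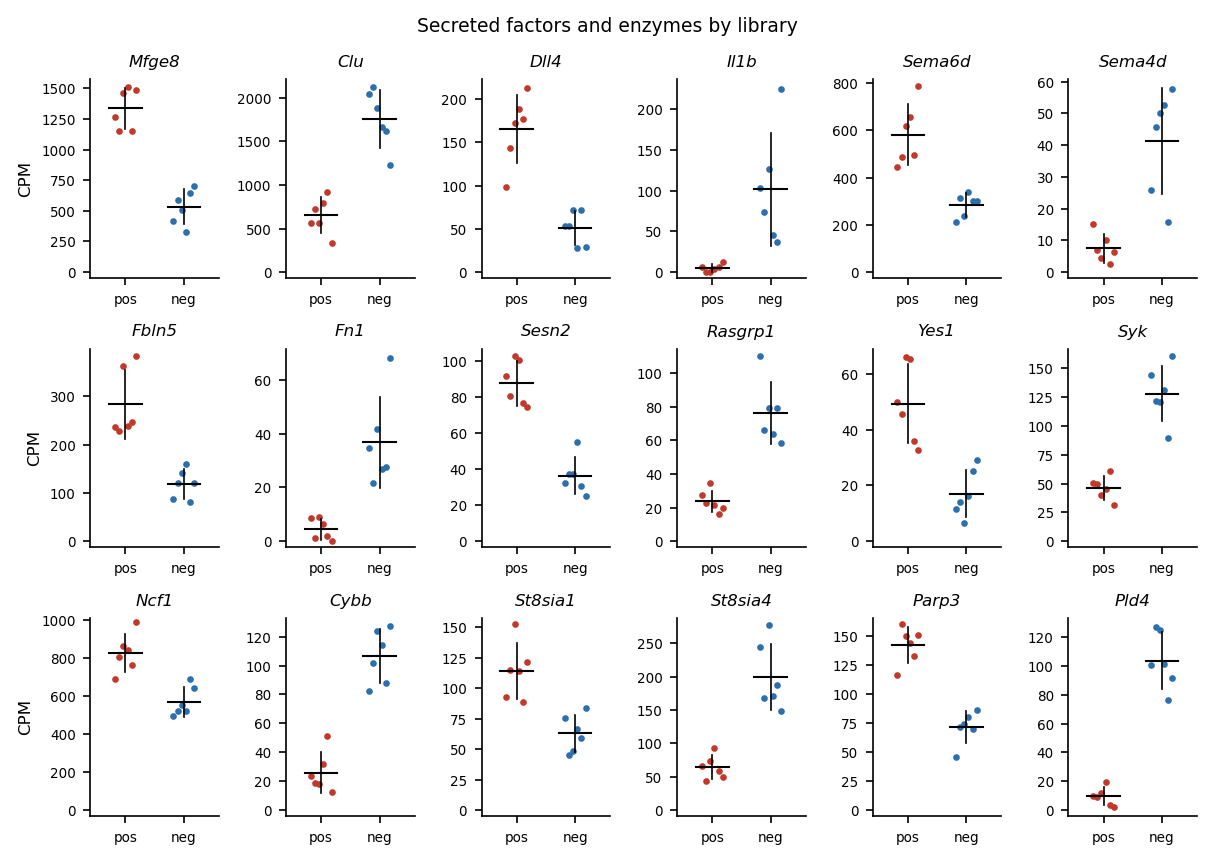
CPM (vertical axes, linear) of 18 genes of the secreted factor and enzyme classes in the 6 biotin-positive (pos, red) and 6 biotin-negative (neg, blue) libraries. Replicates 1 to 6 run from left to right in each group, horizontal bars are means and vertical bars are ± SD. The groups overlap for Ncf1 and are separate for the other 17 genes.

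Few genes with sizeable levels were expressed in one group only. A gene was counted when it had no count in any library of one group, a count in all 6 of the other and a mean there of at least 1 CPM. Of 23393 genes, 4 met this with biotin-positive libraries at 0 (0.0171%), and 0 met it with biotin-negative libraries at 0 (0.00%). Fold values are lower bounds against 3 counts over the group, which cover counting error only, since these reads carry no molecular identifiers. Trem2, a lipid-sensing receptor of macrophages (chromosome 17, 48346401 to 48354147), lay at 0.974 to 1.80 CPM, median 1.47, in biotin-negative libraries, at least 55.4-fold higher. Lamp3, the lysosomal glycoprotein DC-LAMP (chromosome 16, 19653378 to 19706375), lay at 0.0714 to 4.39 CPM, median 0.817, at least 68.3-fold higher, and the C-type lectin Clec4b1 (chromosome 6, 123049962 to 123071555) at 0.179 to 3.84 CPM, median 1.03, at least 57.0-fold higher. The remaining one is the noncoding A930006I01Rik. All 4 had counts in both Cd40-null libraries, where Trem2 stood at 0.925 and 0.826 CPM.

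With a count in at least 5 of the 6 libraries, a criterion added after the values were seen, 18 genes were at 0 in biotin-positive libraries (0.0769%) and 1 in biotin-negative libraries (0.00427%). The first set held Mrc1, the macrophage mannose receptor, at 0 to 13.2 CPM (median 2.08, at least 181-fold higher in the group, or 116-fold without biotin-negative replicate 6). The interferon-induced gene Ifi44, the ligand Wnt3 and the ephrin receptor Epha2 were also in it. Of the 18 genes, 9 had counts in both Cd40-null libraries, 1 in 1 of them and 8 in neither. The gene seen in biotin-positive libraries was the serine protease Htra4, at 0 to 2.97 CPM, median 1.05. The count of 4 rose to 10 without biotin-positive replicate 2 or biotin-negative replicate 3.

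At any level the asymmetry was wider. No count was seen in biotin-positive libraries for 3813 genes with a count in at least 1 biotin-negative library, and the reverse held for 474 genes. Most of these were seen in 1 library or a few, with 2014 and 385 genes in exactly 1. A count in all 12 libraries was recorded for 10612 genes. After thinning every library to the smallest total, the numbers of genes with a count were 13197.2 ± 142.1 and 14728.8 ± 594.0 (SD, n = 6 each; exact permutation p = 0.00216).

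**Figure D5:**
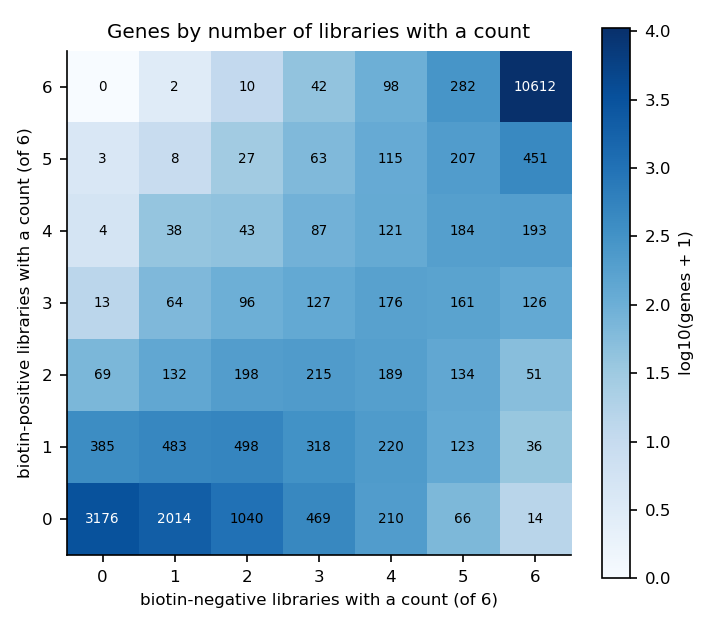
Number of genes by how many of the 6 biotin-positive libraries (vertical axis) and 6 biotin-negative libraries (horizontal axis) had a count; colour is log10(genes + 1). The bottom row, without counts in biotin-positive libraries, holds 2014 genes seen in 1 biotin-negative library and 14 seen in all 6, while the left column holds 385 and 0.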

How the data were processed

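Full-length cDNA of 150 sorted cells per library was sequenced with paired 38 bp reads, per the labels' protocols. Per the submitters' processing notes, Bowtie2 2.1.0, RSEM 1.2.8 and DESeq2 1.16.0 were used with the mm10 build; the gene annotation is not given in the sources used here. The authors deposited expected counts for 23420 gene symbols, which are whole in the table and were rounded as a formality, and a normalized signal for 10321 genes, which served as an alternative.

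Counts were analysed in R 4.3.3 with edgeR 4.0.16: filterByExpr at a minimum count of 10 (14217 genes kept), TMM scaling, 1 fit of all 14 libraries with a group factor and robust glmQLFit, and glmQLFTest. SE is |log2 fold change| over the square root of the F statistic. On simulated counts for these 14217 genes, 200 were changed, all drawn from genes with a mean of at least 5 CPM. The test recovered 42 of 100 2-fold changes (42%) and 86 of 100 4-fold changes (86%), beside 14 false calls. Recovery at lower levels was not simulated. Genes were classed by symbol patterns into 37 families. Named genes are the 3 with the smallest p in each family and direction at a mean of at least 5 CPM, plus genes said to be named after their values were seen and Cd40. Where a family had fewer, fewer are named, and the text describes a selection of them. The comparison, families, markers and motifs were chosen with earlier results of these data known. Gene positions are from GENCODE on GRCm38, 1-based. Alternatives were other scalings and filters, limma 3.58.1 (voom with quality weights, and the deposited signal as log2 of value plus 1), DESeq2 1.42.0, only the 12 biotin-sorted libraries, covariates, a replicate block and each library left out. From one-group counts, 27 date-like symbols were left out. Families of near-identical genes (Lilrb4, Serpinb6) are uncertain as single genes.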

Additional observations from a re-analysis of the deposited data

Results flagged for a closer look

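In 176 groups of 6 libraries, 8 held a highest or lowest library whose gap to the nearest other library was a large part of the range of the group (Dixon's test at the 95% level); chance flags about 1 in 20 groups. Zeb1 in biotin-negative replicate 5 stood at 90.8 CPM, with the nearest library at 72.4 CPM, and Adra1a in biotin-negative replicate 6 at 41.5 CPM, with the nearest at 16.9 CPM. Both reached into the biotin-positive range. Irf5 in biotin-positive replicate 1 stood at 396 CPM (nearest 496), and Npc2 in biotin-positive replicate 6 at 314 CPM (nearest 436). Serpinb6a, a protease inhibitor called higher, stood at 87.6 CPM in biotin-positive replicate 2 (nearest 103 CPM). Pvrl1 stood at 11.9 CPM in biotin-negative replicate 1 (nearest 7.35) and Ezh1 at 82.6 CPM in biotin-negative replicate 2 (nearest 126). The total count of biotin-positive replicate 5 was 3.33e+07, with the next library of the group at 1.91e+07. Without that library the called genes numbered 524 higher and 582 lower.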

How the results depend on the processing

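The counts of genes called stayed within 1.5 times the reported ones under DESeq2 (722 higher and 848 lower), voom with quality weights (626 and 652), limma on the deposited signal (624 and 637), other scalings, other filters, no robust option and the 12 biotin-sorted libraries alone, except that DESeq2 and limma on the deposited signal each called 20 transcription factors lower. Of 195 genes followed singly, DESeq2 and the deposited signal kept the call of 195 each and voom of 191. With the T cell covariate, 319 genes were called higher and 266 lower, 198 at least 2-fold lower, 7 transcription factors lower, 15 receptors higher and 28 lower, 21 secreted factors lower and 41 enzymes lower. With the monocyte and macrophage covariate the calls were 52 higher and 29 lower (46 and 29 at 2-fold), with 1 and 1 transcription factors, 4 and 2 receptors, 2 and 4 secreted factors, and 5 and 4 enzymes. There C1qb reversed, to log2 1.29 (adjusted p = 0.868). With the number of detected genes they were 6 higher and 5 lower (6 and 5 at 2-fold), with 0 and 0 transcription factors, 0 and 1 receptors, 0 and 2 secreted factors, and 0 and 1 enzymes. This number does not overlap between the groups, so it and the group cannot be told apart. The same holds for the mean log2 CPM of the monocyte and macrophage markers, the covariate used. It lay at -0.735 to 1.04 in biotin-positive and 1.56 to 3.90 in biotin-negative libraries. A call kept or lost with either covariate therefore cannot be assigned to the group or to the covariate. The cause of the other changes was not tested.

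Same-numbered libraries of the groups deviated with correlations of -0.023 to 0.013, so the numbers were not taken as pairs, and 1 biotin-positive library of 6 correlated best with its own number. With the replicate block 439 genes were called higher and 394 lower, 228 at least 2-fold lower and 47 enzymes lower, and 173 of 193 followed genes kept their call.

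With each library left out, 414 to 524 genes were called higher and 414 to 582 lower, 160 to 204 at least 2-fold higher and 272 to 341 lower. Transcription factors numbered 11 to 17 higher and 10 to 20 lower (20 without biotin-positive replicate 5), receptors 19 to 26 and 39 to 63 (39 without biotin-positive replicate 4), secreted factors 15 to 20 and 26 to 36, and enzymes 67 to 82 and 51 to 73. The difference in detected genes was -1830 to -1526.6. Genes at 0 in biotin-positive libraries only numbered 4 to 10, and in biotin-negative libraries only 0 to 1. The first count was 0 at a mean of at least 5 CPM and 8 when up to 3 counts were allowed. With a count in 5 of 6 libraries, chosen after seeing the data, the counts were 18 and 1. The 150 cells per library and the recovery of 42% of simulated 2-fold changes limit what a missing call shows.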
